A study of Mus musculus with 20 samples.

Results

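Titan is an outbred mouse line (DU6) bred over many generations for high body mass, and its liver at 19–21 weeks was compared here with the liver of the unselected control line FZTDU. All mice were males fed a standard breeding diet with free access. The comparison holds 10 of the 20 sequenced livers, 5 Titan and 5 control mice numbered 1 to 5 as in the sample titles, and was chosen by those titles. The other 10 livers, from 11-week-old mice of the same lines, entered the fit and serve for comparison. Neither line is inbred, and the Titan line was refounded from few pairs after embryo transfer, so a difference between the lines can follow selection, drift or the founders, which cannot be told apart here. Control liver had 7806106 to 18127024 reads on genes per mouse and Titan liver 6794935 to 11464698. Levels are counts of uniquely mapped reads, scaled by TMM to CPM (counts per 1000000), and 13784 genes were tested with the quasi-likelihood test of edgeR, in which a gene was called at a Benjamini–Hochberg adjusted p under 0.05. Fold changes are Titan over control on the log2 scale and are given ± SE, and group means ± SD of 5 mice.

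The liver breaks down amino acids and makes urea from their nitrogen, makes and exports lipids, bile acids and plasma proteins, and modifies drugs, steroids and other foreign or endogenous compounds for excretion. These tasks are divided along the lobule between periportal and pericentral hepatocytes. Growth hormone sets much of the difference between male and female liver in rodents, and hepatocytes also release hormones such as FGF21 that act on other organs.

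Of the 13784 genes, 584 were higher (4.24%) and 673 lower (4.88%) in Titan liver, 9.12% in all, and the median log2 fold change over all tested genes was 0.01. A change of more than 2-fold was measured for 249 of the higher and 164 of the lower genes. For 1051 genes (7.62% of those tested) the 5 Titan and 5 control values did not overlap, and 790 of these were called. Uniquely mapped reads assigned to no gene on the counted strand are called reads outside genes here. They can also lie in introns or on the strand opposite a gene. They made up 25.19% to 41.96% of uniquely mapped reads in Titan and 23.01% to 41.25% in control liver. The highest shares were in Titan mouse 3 and control mouse 4. Leaving out both mice left 417 higher and 433 lower genes, and with this share in the model there were 460 and 569.

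**Figure D1:**
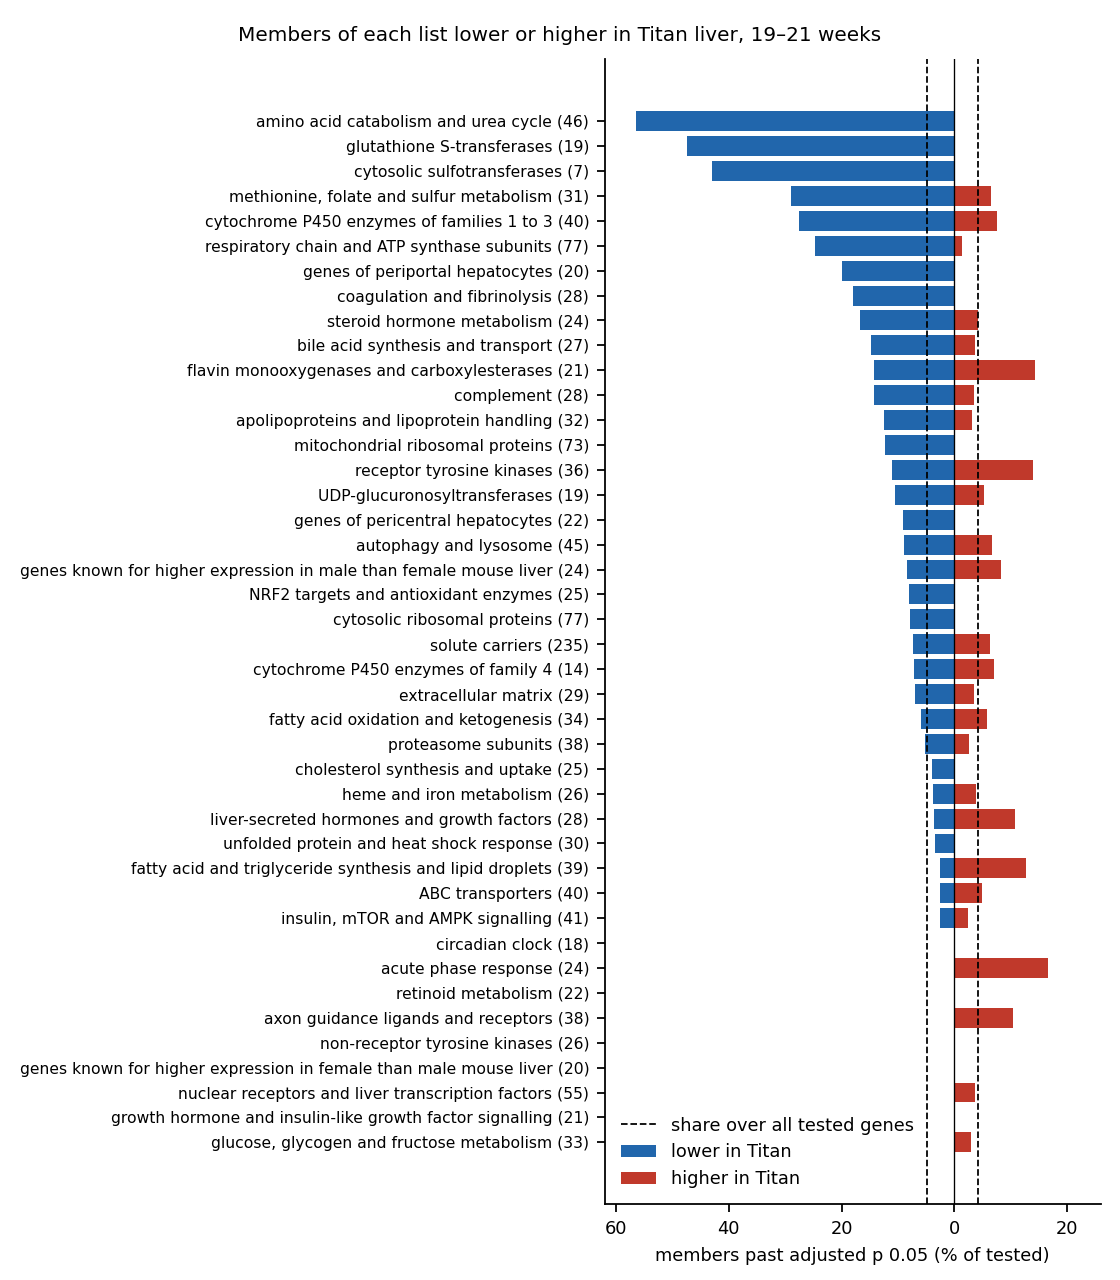
Share of the tested members of each gene list that were called, lower in Titan to the left and higher to the right (%), with the number of tested members in parentheses. Dashed lines give the shares over all tested genes, 4.88% lower and 4.24% higher, and the list of amino acid catabolism reaches furthest to the left (56.5%).

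Outside the interferon pathways and assembly factors, the genes with the smallest p were a mixed group. Vcp encodes the p97 ATPase that extracts ubiquitinated proteins, and it lies at chromosome 4, 42979963 to 43000507 of GRCm38. It had 92.7, 107, 91.5, 85.9 and 95.9 CPM in Titan mice 1 to 5 and 25.4, 26.6, 27.7, 28.2 and 23.9 CPM in control mice 1 to 5. The groups were far apart and narrow (log2 1.84 ± 0.08, adjusted p = 1.1e-11). Pygb, the brain form of glycogen phosphorylase, had 9.24, 9.18, 8.75, 15 and 10.3 CPM in Titan and 4.03, 4.15, 3.94, 4.35 and 5.2 CPM in control liver, with the highest value in Titan mouse 4 (log2 1.29 ± 0.14, adjusted p = 8.2e-06). Trp53inp2, which takes part in autophagosome formation, averaged 448 ± 73.8 against 217 ± 27.4 CPM (log2 1.05 ± 0.12, adjusted p = 1.1e-05). Also higher without overlap were Tcaf1 (1.65), a regulator of TRP channels, Tma7 (2.14), Aatk (2.0), a kinase known from neurons, Adgb (3.90), an androglobin gene, and Gm6614 (2.10). No control mouse had more than 5 reads of Adgb, so the size of its fold is uncertain.

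Some genes had almost no counted reads in one line. The alpha-globin copy Hba-a2 had 17.4, 9.09, 9.24, 17.5 and 7.73 CPM in Titan liver and 1 read in all 5 control mice together. Acpp, an acid phosphatase, had 4.49, 6.35, 6.56, 3.96 and 7.99 CPM in Titan liver and at most 2 reads in any control mouse. No fold is given for these genes, since each control mouse was at or under the floor of 3 reads. Reads that fit both alpha-globin copies equally are not in the counts, so the Hba-a2 values cover only the reads that tell the copies apart. Less RNA and a difference between the lines in which reads are unique cannot be told apart for this gene.

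Among the lower genes the smallest p belonged to Hsd3b3, a 3-beta-hydroxysteroid dehydrogenase, with 59.8, 73.8, 56.3, 40.4 and 69.6 CPM in Titan and 249.6, 224, 245, 189 and 205 CPM in control liver (log2 -1.89 ± 0.13, adjusted p = 1.3e-08). Hsd3b3 belongs to a gene family, and the limit of unique reads given for Hba-a2 holds for it as well. Esd, an esterase that completes formaldehyde detoxification, averaged 77.2 ± 8.97 against 151 ± 15.5 CPM (log2 -0.97 ± 0.09, adjusted p = 1.5e-06). Mtap, which salvages methionine from methylthioadenosine, averaged 18.1 ± 1.69 against 34.8 ± 1.04 CPM (log2 -0.94 ± 0.11, adjusted p = 1.9e-05). Pign (-0.64), an enzyme of GPI anchor synthesis, Fam8a1 (-0.65) and D3Ertd751e (-1.44) were lower without overlap. Klf1, the erythroid transcription factor, had 0.351 ± 0.060 against 2.37 ± 0.207 CPM (log2 -2.74 ± 0.29, adjusted p = 6.8e-06). No Titan mouse had more than 4 reads of Klf1, so the size of its fold is uncertain. The DNA helicase gene Recql4 had 1.97, 2.08, 1.83, 1.98 and 1.59 CPM in control liver, while every Titan mouse was at or under 3 reads and no fold is given.

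Amino acid catabolism was the list with the largest called share. Of its 46 members, all tested, 26 (56.5%) were lower in Titan liver and 0 higher, against 4.88% lower over all genes. The median log2 fold change was -0.42, and 43 of the 46 had a negative value. The called changes ranged in size from 0.28 to 1.50 on the log2 scale, and for 15 of the 26 the mice did not overlap between the lines, a share of 57.7% against 62.8% of all called genes. The count depended on single mice, with 15 lower members without Titan mouse 4 and 17 without Titan mouse 1. It was 24 with the share outside genes in the model and 19 without Titan mouse 3 and control mouse 4. Fewer cells of a type and less RNA per cell cannot be told apart in such bulk samples.

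Agxt, the peroxisomal alanine-glyoxylate aminotransferase that keeps glyoxylate from becoming oxalate, had the smallest p of the list. It had 104, 126, 125, 88 and 124 CPM in Titan mice and 322, 264, 357, 272 and 388 CPM in control mice. Every Titan value lay under every control value (log2 -1.50 ± 0.15, adjusted p = 3.0e-06). Its start lies on the plus strand of chromosome 1 of GRCm38.p6, and the 250 bases before it are printed here because this gene leads the list. The RefSeq sequence at chr1:93134990-93135239 is

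Agxt: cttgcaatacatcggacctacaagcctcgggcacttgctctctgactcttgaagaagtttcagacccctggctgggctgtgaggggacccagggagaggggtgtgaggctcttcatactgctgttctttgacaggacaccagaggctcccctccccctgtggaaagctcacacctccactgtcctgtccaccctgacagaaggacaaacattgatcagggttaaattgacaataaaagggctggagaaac

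It held none of the 5 motifs searched on both strands, which were CAAAGTCCA (HNF4), TTCNNNGAA (STAT5), TGATGNAA (ATF4), TTGCNNCAA (C/EBP) and CACGTG (E-box). In the same 250 bases of the 21 lower members of the list that had a promoter in the RefSeq table, the E-box letters were present in 4 (19.0%), TGATGNAA in 1, TTCNNNGAA in 1 and the other motifs in 0. Over the 9907 tested genes with a promoter in that table these letters were present in 9.84%, 2.52% and 7.34%, and CAAAGTCCA and TTGCNNCAA in 0.525% and 1.58%. A match of letters is a description and not a binding site.

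**Figure D2:**
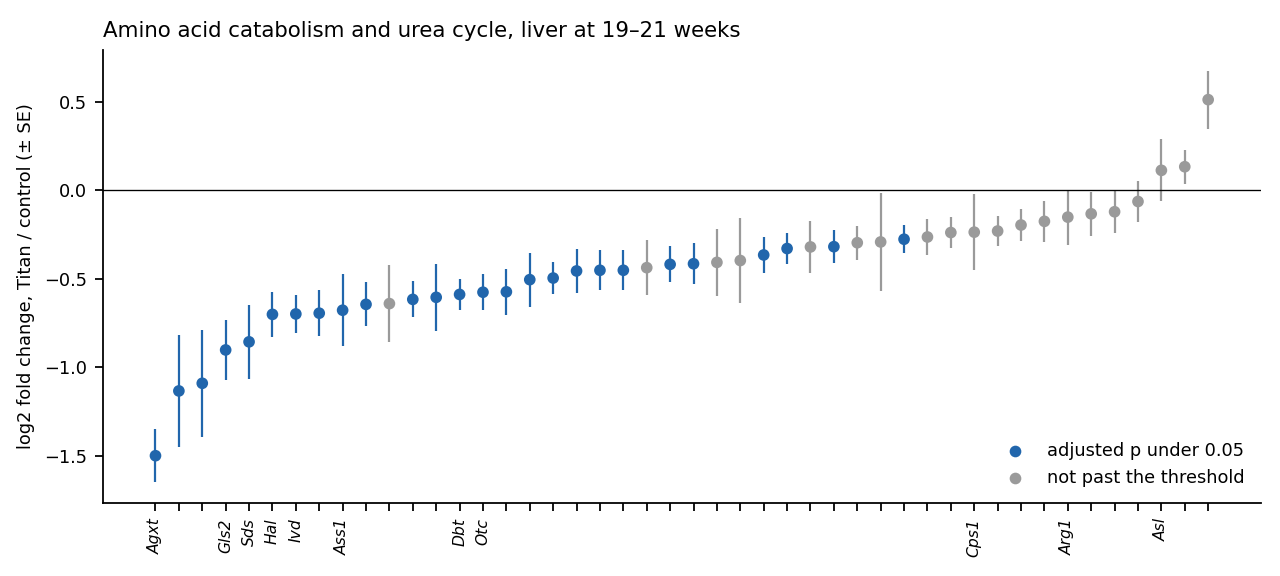
Log2 fold change of Titan over control liver at 19–21 weeks (± SE) for the 46 members of amino acid catabolism and the urea cycle, ordered by value and with the names of those described in the text. Blue points are the 26 members past the threshold, all under 0, and 3 of the grey points lie above 0.

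The branched-chain, aromatic, histidine and glycine routes all had lower members. Dbt, a core subunit of branched-chain ketoacid dehydrogenase, had 87.9, 104, 86.7, 75.3 and 97.1 CPM in Titan and 146, 147, 130.0, 119.5 and 135 CPM in control mice (log2 -0.59 ± 0.09, adjusted p = 2.1e-04). Ivd, the isovaleryl-CoA dehydrogenase of leucine breakdown, averaged 121 ± 17.4 against 197 ± 23.6 CPM (log2 -0.70 ± 0.11, adjusted p = 2.6e-04). Hal, the first enzyme of histidine breakdown, averaged 277 ± 23.8 against 450.4 ± 83.7 CPM (log2 -0.70 ± 0.13, adjusted p = 0.0015). Gls2, liver glutaminase, averaged 162 ± 33.3 against 304 ± 23.5 CPM and was lowest in Titan mouse 1 (log2 -0.90 ± 0.17, adjusted p = 0.00203). Sds, serine dehydratase, was lower as well (log2 -0.86 ± 0.21, adjusted p = 0.0129), although Titan mouse 2 with 116 CPM lay among the controls of 100.1 to 127 CPM. Hal, Gls2, Sds and Ass1 were also the 4 called members, all lower, of the 20 tested genes of periportal hepatocytes (20% against 4.88% lower over all genes). Of the 22 genes of pericentral hepatocytes 2 were lower (9.09%). DESeq2 called 5 periportal and 6 pericentral genes, and the difference between these lists was not tested.

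The urea cycle enzymes did not move alike. Otc, the mitochondrial ornithine transcarbamylase, had 399, 433, 388, 293 and 429 CPM in Titan and 645, 568, 602, 538 and 541 CPM in control mice without overlap (log2 -0.58 ± 0.10, adjusted p = 9.8e-04). Ass1, argininosuccinate synthase, averaged 395 ± 107 against 633 ± 172 CPM (log2 -0.68 ± 0.20, adjusted p = 0.0424), and this call was lost in 10 of 20 alternative settings. Cps1, which makes the carbamoyl phosphate that enters the cycle, averaged 4351 ± 607 against 5127 ± 1415 CPM and did not pass the test (log2 -0.24 ± 0.22, adjusted p = 0.539). The same was true of Arg1, which releases urea (log2 -0.15 ± 0.16, adjusted p = 0.59), and of Asl (log2 0.11 ± 0.18, adjusted p = 0.745). Slc38a3, a glutamine transporter of periportal hepatocytes, was lower without overlap, with 644 ± 131 against 1361 ± 189.8 CPM (log2 -1.08 ± 0.14, adjusted p = 5.1e-05).

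In methionine, folate and sulfur metabolism 9 of 31 members were lower and 2 higher, with a median of -0.27. The shares were 29.0% lower and 6.45% higher, against 4.88% and 4.24% over all genes. Cth, which makes cysteine from cystathionine, had 235, 242, 205, 164 and 234 CPM in Titan and 385, 458, 339.6, 349 and 404 CPM in control mice (log2 -0.84 ± 0.13, adjusted p = 2.8e-04). Aldh1l1, the cytosolic formyltetrahydrofolate dehydrogenase, averaged 756 ± 125 against 1266 ± 206 CPM (log2 -0.74 ± 0.13, adjusted p = 0.00112), Ethe1, a mitochondrial sulfur dioxygenase, 32.6 ± 4.48 against 56.5 ± 4.42 CPM (log2 -0.79 ± 0.14, adjusted p = 0.00109), and Dmgdh, of choline breakdown, 367 ± 61.8 against 510.3 ± 59.8 CPM (log2 -0.48 ± 0.11, adjusted p = 0.0109). Mthfd1l, the mitochondrial formyltetrahydrofolate synthetase, was higher. It had 8.29, 11.2, 10.3, 9.11 and 6.03 CPM in Titan and 1.2, 0.722, 1.94, 2.37 and 3.19 CPM in control mice (log2 2.25 ± 0.36, adjusted p = 4.5e-04). Bhmt (log2 -0.52 ± 0.23, adjusted p = 0.165) and Gnmt (log2 -0.35 ± 0.14, adjusted p = 0.126), which remethylate homocysteine and use up S-adenosylmethionine, had lower means in Titan liver and did not pass the test.

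Subunits of the respiratory chain and ATP synthase encoded in the nucleus were lower in 19 of 77 cases (24.7% against 4.88% over all genes) and higher in 1 (1.3% against 4.24%). There were 69 values under 0, and the median was -0.20. The changes were small, and only 4 of the 19 exceeded 0.5 on the log2 scale. Cox5b, of complex IV, had 21.9, 22.8, 21.5, 20.7 and 22 CPM in Titan and 26.2, 38.4, 42.2, 38.2 and 35.8 CPM in control mice (log2 -0.73 ± 0.11, adjusted p = 1.9e-04). Ndufa13 (-0.55) of complex I, Uqcr10 (-0.48) of complex III and Cox7b (-0.48) of complex IV also lay without overlap. The count fell to 12 without Titan mouse 3 or 4 or control mouse 3, and to 11 with no filter on low counts. Among the 73 mitochondrial ribosomal proteins 9 were lower (12.3% against 4.88% over all genes) and 0 higher, 66 had a value under 0 and the median was -0.14. Mrpl35 (log2 -0.43 ± 0.08, adjusted p = 0.0011), Mrps31 (-0.52) and Mrps9 (-0.47) led that list, whose count ranged from 3 without control mouse 3 to 9 as single mice were left out.

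Enzymes that handle drugs and other foreign compounds included genes with large changes in both directions. Of the 40 tested cytochrome P450 genes of families 1 to 3, 11 were lower (27.5% against 4.88% over all genes) and 3 higher (7.5% against 4.24%). The median over the 40 was only -0.15, and 20 further genes of these families had too few reads to be tested. Cyp2c37 had 22.2, 14, 29.4, 8.86 and 18.8 CPM in Titan and 73, 88.5, 111, 87.4 and 119 CPM in control mice (log2 -2.38 ± 0.34, adjusted p = 1.6e-04). Cyp2c54 fell as well, from 157 ± 8.19 to 34.1 ± 18 CPM (log2 -2.21 ± 0.37, adjusted p = 7.4e-04), and Cyp2c55 from 17.5 ± 8.15 to 2.2 ± 0.764 CPM (log2 -2.97 ± 0.46, adjusted p = 3.5e-04). Cyp2a12, a steroid hydroxylase, had 47.3, 37.3, 56.9, 193 and 56.7 CPM in Titan mice, with mouse 4 well above the others, and 397, 458, 426, 239 and 285 CPM in control mice (log2 -2.20 ± 0.32, adjusted p = 2.0e-04). Cyp2a5, the coumarin hydroxylase, had 2.04, 27.4, 18, 21.7 and 2.12 CPM in Titan and 72.3, 157, 185, 37.9 and 116 CPM in control mice, a wide spread in both lines and still no overlap (log2 -2.99 ± 0.56, adjusted p = 0.00188).

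The 3 higher P450 genes, named because they are so few, were Cyp1b1 (log2 2.22 ± 0.43, adjusted p = 0.00235), Cyp3a13 (log2 1.17 ± 0.33, adjusted p = 0.0271) and Cyp2c39 (log2 1.66 ± 0.50, adjusted p = 0.0429). The last pair overlapped between the lines and lost their calls in 8 and 10 of 20 alternative settings. The textbook drug-metabolising forms of mouse liver did not pass the test. Cyp2e1 averaged 4057 ± 622 against 3992 ± 416 CPM (log2 0.02 ± 0.15, adjusted p = 0.947), Cyp3a11 3637 ± 579.8 against 4783 ± 965 CPM (log2 -0.40 ± 0.17, adjusted p = 0.146), Cyp1a2 259 ± 38.2 against 386 ± 142 CPM (log2 -0.57 ± 0.22, adjusted p = 0.109) and Cyp2b10 7.22 ± 5.3 against 5.58 ± 3.89 CPM (log2 0.38 ± 0.72, adjusted p = 0.79). The nuclear receptors Nr1i2 (log2 0.17 ± 0.11, adjusted p = 0.371) and Nr1i3 (log2 0.67 ± 0.22, adjusted p = 0.0588), which induce some P450 genes, were not called either. Nr1i3 was called by DESeq2, with counts over both strands, with no filter on low counts, and without Titan mouse 2 or 4. Copies of the Cyp2c and Cyp2a families are near-identical in places, and their counts hold only reads unique to one copy. A difference in RNA and a difference between the lines in which reads are unique cannot be told apart for them.

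The upstream sequence of Cyp2c37 is shown because the gene had the smallest p of the P450 list. It lies on the plus strand at chr19:39992174-39992423 of GRCm38.p6, and the capitals mark a match to TTGCNNCAA on the minus strand, starting 122 bases before the start of the gene.

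Cyp2c37: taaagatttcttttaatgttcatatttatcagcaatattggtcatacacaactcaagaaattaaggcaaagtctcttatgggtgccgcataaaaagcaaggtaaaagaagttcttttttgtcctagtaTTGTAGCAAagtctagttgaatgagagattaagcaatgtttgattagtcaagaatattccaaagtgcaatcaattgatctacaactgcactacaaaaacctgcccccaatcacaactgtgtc

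Those letters were found in 2 of the 8 lower P450 genes that had a promoter in the table, and in 3.40% of all lower genes with one.

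Enzymes that conjugate such compounds showed the same direction for glutathione and sulfate and a mixed one for glucuronic acid. Of 19 tested glutathione S-transferases 9 were lower (47.4% against 4.88% over all genes) and 0 higher, with a median of -0.58 and 17 values under 0. Gsta2 had 5.03, 6.06, 4.62, 7.67 and 2.72 CPM in Titan and 13.9, 16.4, 29.1, 10.9 and 21.1 CPM in control mice (log2 -1.82 ± 0.29, adjusted p = 4.8e-04). Gstm6 averaged 40 ± 10.9 against 87.2 ± 22.5 CPM (log2 -1.11 ± 0.20, adjusted p = 0.00131), Gstt2 31.9 ± 0.987 against 56.4 ± 10.9 CPM (log2 -0.82 ± 0.15, adjusted p = 0.00166) and Gsta4, which clears lipid peroxidation products, 57.2 ± 3.72 against 85.2 ± 13.6 CPM (log2 -0.58 ± 0.11, adjusted p = 0.00219). The pi-class gene Gstp1 was not called (log2 -0.38 ± 0.26, adjusted p = 0.388). Of 7 tested cytosolic sulfotransferases 3 were lower (42.9% against 4.88% over all genes). They were Sult1d1 (log2 -1.48 ± 0.24, adjusted p = 4.4e-04), Sult5a1 (log2 -1.43 ± 0.39, adjusted p = 0.0231) and Sult1b1 (log2 -0.68 ± 0.20, adjusted p = 0.0322).

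Of 19 tested UDP-glucuronosyltransferases 1 was higher (5.26% against 4.24% over all genes) and 2 lower (10.5% against 4.88%). Ugt2b37 had 45.8, 42.4, 30.6, 87.2 and 41.8 CPM in Titan and 1.72, 1.81, 1.46, 3.43 and 15.8 CPM in control mice, so that the highest control mouse, 5, still lay under every Titan mouse (log2 3.37 ± 0.49, adjusted p = 1.7e-04). Ugt2a3 (log2 -0.88 ± 0.17, adjusted p = 0.00256) and Ugt2b1 (log2 -0.50 ± 0.13, adjusted p = 0.0172) were lower, and the bilirubin-conjugating Ugt1a1 was not called (log2 0.11 ± 0.23, adjusted p = 0.822). Carboxylesterases, which cleave esters and lipids, moved in both directions. Ces2a (log2 -0.76 ± 0.11, adjusted p = 1.6e-04) and Ces1f (log2 -0.46 ± 0.08, adjusted p = 0.00155) were lower, while Ces1g (log2 1.46 ± 0.28, adjusted p = 0.00256) and Ces1d (log2 0.62 ± 0.17, adjusted p = 0.0239) were higher. The conjugating enzymes and carboxylesterases also belong to gene families, and reads that fit several places are not counted. For them too, a difference in RNA and a difference between the lines in which reads are unique cannot be told apart.

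**Figure D3:**
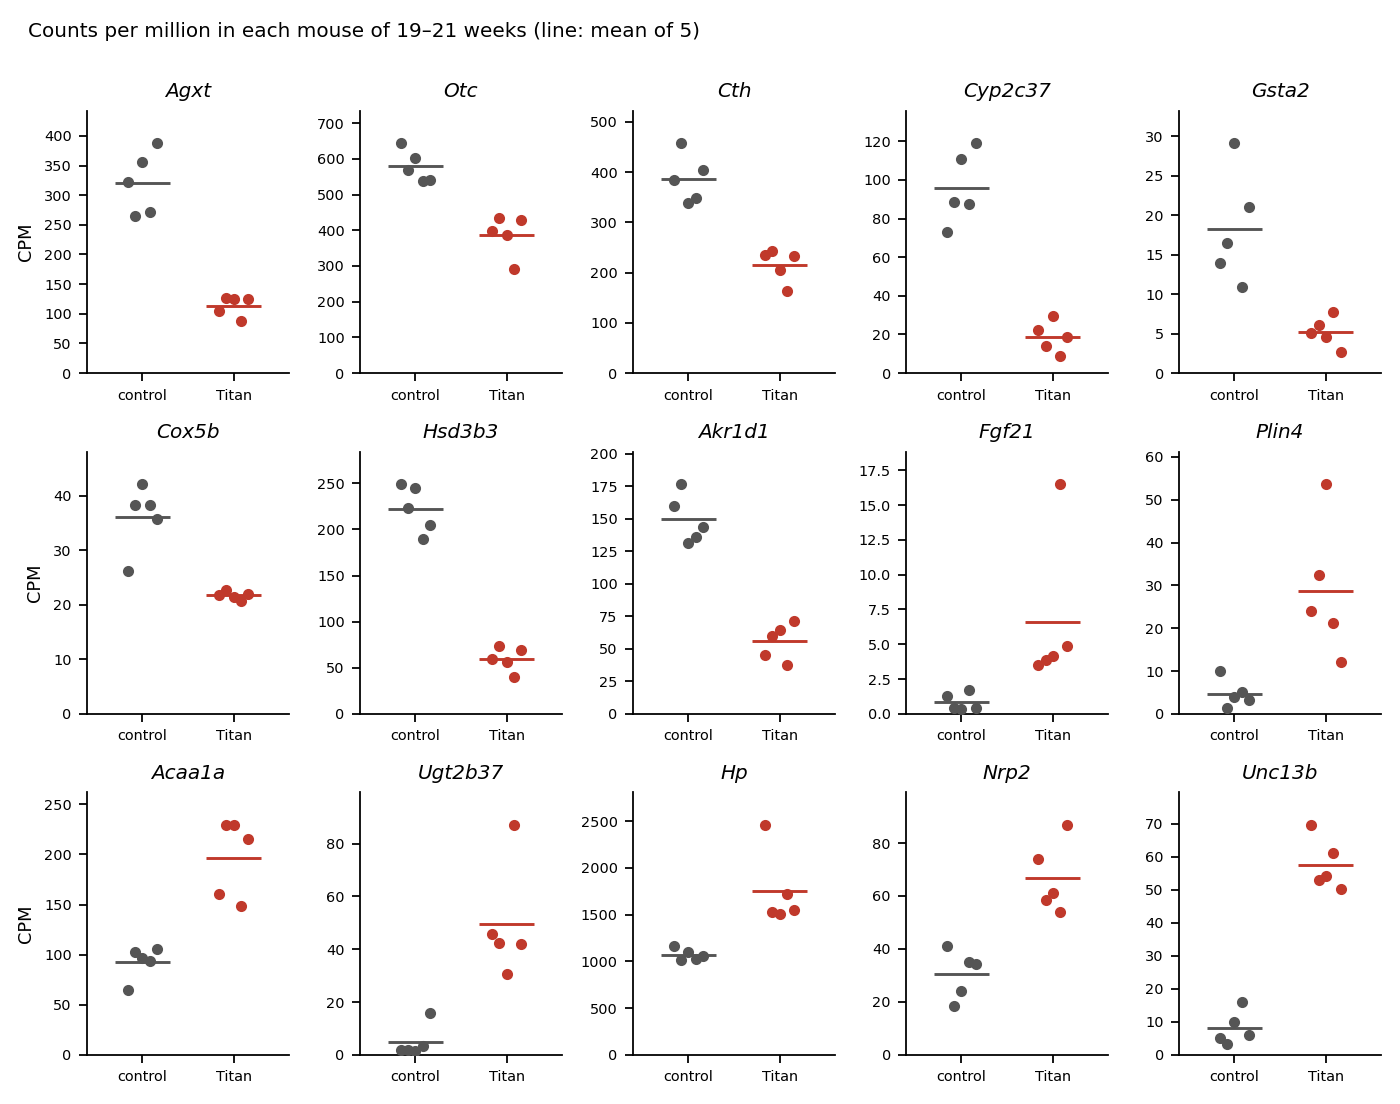
CPM in each control mouse (grey) and Titan mouse (red) of 19–21 weeks for 15 named genes, with a line at the mean of 5. The axes start at 0, and in every panel the values of the lines do not overlap.

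Of the 39 members of the list of fatty acid and triglyceride synthesis and lipid droplets, 5 were higher (12.8% against 4.24% over all genes) and 1 lower. The 5 higher ones, Plin4, Cidec, Cidea, Fitm1 and Fitm2, encode proteins of lipid droplets or their formation, and other droplet proteins of the list were not called. The count of 5 fell to 3 without Titan mouse 3 or control mouse 1, 2 or 5, to 3 with at least 10 counts in every mouse and to 2 in the fit of the 10 mice alone. Plin4, a droplet coat protein, had 24.1, 32.4, 53.7, 21.3 and 12.2 CPM in Titan and 9.95, 1.44, 3.88, 5.14 and 3.19 CPM in control mice (log2 2.61 ± 0.47, adjusted p = 0.00142). Cidec, which fuses droplets, had 2.58, 58, 41.4, 11.4 and 9.09 CPM in Titan and 3.95, 0.632, 1.13, 3.43 and 0.755 CPM in control mice, with Titan mouse 1 inside the control range (log2 3.71 ± 0.76, adjusted p = 0.00388). Its relative Cidea had 0.544, 39.8, 7.66, 0 and 2.46 CPM in Titan mice and at most 3 reads in any control mouse. No fold is given for Cidea, whose Titan level came mostly from mouse 2 and was 0 in mouse 4. The droplet-forming proteins Fitm1 (log2 1.18 ± 0.35, adjusted p = 0.0367) and Fitm2 (log2 0.51 ± 0.14, adjusted p = 0.0222) lost their calls in 9 and 6 of 20 settings.

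Enzymes of fatty acid synthesis did not pass the test. Fasn, fatty acid synthase, averaged 881 ± 311 against 1223 ± 467 CPM (log2 -0.47 ± 0.34, adjusted p = 0.419), Acaca, acetyl-CoA carboxylase, 65.2 ± 13.1 against 77.7 ± 6.35 CPM (log2 -0.25 ± 0.20, adjusted p = 0.476), and their regulator Srebf1 202 ± 56.6 against 341 ± 102 CPM (log2 -0.75 ± 0.29, adjusted p = 0.113). Scd1, which desaturates stearoyl-CoA, had 482, 13052, 14372, 4272 and 10793 CPM in Titan and 13388, 10801, 10180.5, 14819 and 8621 CPM in control mice (log2 -0.43 ± 0.49, adjusted p = 0.633). Titan mouse 1 had the lowest value of all 10 mice by a wide margin, and Titan mouse 4 the next. Acss2, which makes acetyl-CoA from acetate, was lower (log2 -1.18 ± 0.31, adjusted p = 0.0186), with 79.1, 239.6, 148, 66.2 and 258 CPM in Titan and 337, 465, 219.6, 374 and 403 CPM in control mice. In cholesterol synthesis and uptake 1 of 25 members was called (4.0% against 9.12% over all genes). It was Ebp, a sterol isomerase (log2 -0.37 ± 0.08, adjusted p = 0.00648). The negative values of 24 of the 25 members, with a median of -0.25, did not reach the threshold in the others, among them the regulator Srebf2 (log2 -0.04 ± 0.14, adjusted p = 0.905).

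In fatty acid oxidation 2 of 34 members were higher and 2 lower, 5.88% in each direction and near the 4.24% and 4.88% over all genes. Acaa1a, a peroxisomal thiolase, had 161, 229, 229.7, 149 and 216 CPM in Titan and 64.7, 102, 96.7, 93.9 and 106 CPM in control mice (log2 1.09 ± 0.16, adjusted p = 2.7e-04). Slc25a20, the carnitine-acylcarnitine carrier of mitochondria, averaged 111 ± 9.55 against 78.8 ± 8.17 CPM (log2 0.50 ± 0.09, adjusted p = 0.00163). Ehhadh, the bifunctional enzyme of the peroxisome, was lower (log2 -0.68 ± 0.16, adjusted p = 0.0113), as was mitochondrial Echs1 (log2 -0.26 ± 0.08, adjusted p = 0.044), whose call was lost in 16 of 20 settings. Cpt1a (log2 0.25 ± 0.14, adjusted p = 0.264), which carries fatty acids into oxidation, and Ppara (log2 0.14 ± 0.13, adjusted p = 0.527), which regulates it, were not called. Among 33 genes of glucose, glycogen and fructose metabolism Pygb alone was called (3.03% against 9.12% over all genes). G6pc (-0.18) and Pck1 (0.48), of glucose production, had adjusted p of 0.714 and 0.218 in the edgeR test.

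Apolipoproteins and lipoprotein enzymes had 4 lower and 1 higher of 32 members (12.5% and 3.12% against 4.88% and 4.24% over all genes). Lpl, lipoprotein lipase, which adult liver makes little of, had 18.9, 9.38, 9.97, 15.8 and 12.3 CPM in Titan and 15.9, 76.4, 50.7, 37.7 and 115 CPM in control mice (log2 -2.16 ± 0.44, adjusted p = 0.0035). Control mouse 1 lay inside the Titan range. Lipc, hepatic lipase, averaged 128 ± 7.62 against 168 ± 21.2 CPM (log2 -0.39 ± 0.09, adjusted p = 0.0105), Apoc1 1561 ± 103 against 1994 ± 288 CPM (log2 -0.35 ± 0.10, adjusted p = 0.0305) and Apom, the HDL carrier of sphingosine phosphate, 73.7 ± 17.9 against 115 ± 19.2 CPM (log2 -0.65 ± 0.20, adjusted p = 0.0411). The calls of Apoc1 and Apom were each lost in 8 of 20 settings. Pltp, the phospholipid transfer protein and the 1 higher member, was spread from 18.8 to 170.4 CPM in Titan and from 18.8 to 74 CPM in control mice (log2 1.41 ± 0.43, adjusted p = 0.0427) and lost its call in 10 of 20 settings. Apob, the core protein of VLDL, averaged 23136 ± 1183 against 21835 ± 1788 CPM (log2 0.08 ± 0.10, adjusted p = 0.668).

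Hormones made by hepatocytes included 3 higher and 1 lower of 28 members (10.7% and 3.57% against 4.24% and 4.88% over all genes). Fgf21 encodes a hormone of fasting, protein restriction and metabolic stress. It had 3.53, 3.91, 4.13, 16.5 and 4.84 CPM in Titan and 1.29, 0.451, 0.378, 1.71 and 0.419 CPM in control mice. All Titan mice lay above all control mice, and mouse 4 lay far above the other Titan mice (log2 3.09 ± 0.55, adjusted p = 0.00112). The call held without each single mouse. Its co-receptor gene Klb was lower, with 31.7 ± 4.57 against 46.3 ± 5.11 CPM and no overlap (log2 -0.54 ± 0.11, adjusted p = 0.00316). Agt, angiotensinogen, averaged 391 ± 50 against 231 ± 17.8 CPM (log2 0.76 ± 0.17, adjusted p = 0.00874), the inhibin subunit Inhbc 95.5 ± 7.14 against 63.9 ± 12.9 CPM (log2 0.58 ± 0.14, adjusted p = 0.0136) and Lect2 49.1 ± 6.66 against 72.2 ± 10.9 CPM (log2 -0.56 ± 0.14, adjusted p = 0.0129). Gdf15 (log2 0.28 ± 0.41, adjusted p = 0.723) and Lepr (log2 -0.55 ± 0.27, adjusted p = 0.218) were not called.

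The upstream bases of Fgf21 are shown because the gene had the smallest p among these hormones. The gene is on the minus strand, and the sequence runs 5′ to 3′ over chr7:45615491-45615740 of GRCm38.p6. Capitals mark a match to TGATGNAA on the opposite strand, starting 139 bases before the start, and an E-box, starting 50 bases before it.

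Fgf21: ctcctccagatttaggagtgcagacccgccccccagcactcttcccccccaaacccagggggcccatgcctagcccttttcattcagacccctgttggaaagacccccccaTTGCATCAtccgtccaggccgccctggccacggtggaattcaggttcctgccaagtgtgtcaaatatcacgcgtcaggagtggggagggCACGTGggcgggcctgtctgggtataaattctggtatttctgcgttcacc

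TGATGNAA was found in 2.63% of the promoters of higher genes and in 2.40% of those of lower genes, near the 2.52% over all tested genes. The E-box stood in 8.35% and 11.2%.

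Bile acid synthesis and transport had 4 lower and 1 higher of 27 members (14.8% and 3.7% against 4.88% and 4.24% over all genes). Akr1d1, the 5-beta-reductase of bile acid and steroid hormone metabolism, had 45.5, 59.7, 64.5, 37.8 and 71.8 CPM in Titan and 159.7, 177, 132, 136 and 144 CPM in control mice (log2 -1.42 ± 0.21, adjusted p = 2.6e-04). Cyp8b1, which adds the hydroxyl group that makes cholic acid, had 251, 80.1, 115, 44 and 196 CPM in Titan and 385, 389.8, 272, 397 and 422 CPM in control mice, without overlap but with a wide Titan spread (log2 -1.44 ± 0.39, adjusted p = 0.0237). Slc10a1, the uptake transporter NTCP, averaged 397 ± 44.3 against 539 ± 60.5 CPM (log2 -0.44 ± 0.10, adjusted p = 0.011), and Abcb4, which exports phospholipid into bile, 405 ± 37.9 against 279.9 ± 43.9 CPM (log2 0.53 ± 0.14, adjusted p = 0.0235). The rate-limiting Cyp7a1 (log2 0.11 ± 0.30, adjusted p = 0.867), Cyp7b1 (log2 -0.35 ± 0.29, adjusted p = 0.493) and the bile salt export pump Abcb11 (log2 -0.34 ± 0.14, adjusted p = 0.152) were not called. In steroid hormone metabolism 4 of 24 members were lower (16.7%) and 1 higher (4.17%), with Hsd3b3 and Akr1d1 at the head. Hsd11b1, which regenerates corticosterone, averaged 328 ± 58.9 against 523 ± 113 CPM (log2 -0.67 ± 0.14, adjusted p = 0.00469).

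Acute phase genes moved up where they were called, 4 of 24 (16.7% against 4.24% over all genes) with 0 lower and a median of 0.20. Hp, haptoglobin, had 2461, 1522, 1502, 1720.4 and 1554 CPM in Titan and 1160.1, 1018, 1096, 1029 and 1058 CPM in control mice, so that every Titan mouse was above every control mouse and mouse 1 highest (log2 0.71 ± 0.15, adjusted p = 0.00555). Lcn2 averaged 3.72 ± 1.01 against 1.18 ± 0.864 CPM (log2 1.71 ± 0.36, adjusted p = 0.00492), Fgl1 206 ± 126 against 78.7 ± 43.5 CPM (log2 1.39 ± 0.36, adjusted p = 0.0197) and Steap4 167 ± 13.5 against 119 ± 12.1 CPM (log2 0.49 ± 0.13, adjusted p = 0.0237). Saa1 (log2 1.37 ± 0.67, adjusted p = 0.214) and Orm2 (log2 0.36 ± 0.45, adjusted p = 0.671), classical markers of the response, were not called. The count was 2 without Titan mouse 1, and 2 without Titan mouse 3 and control mouse 4.

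Complement had 4 lower and 1 higher of 28 members (14.3% and 3.57% against 4.88% and 4.24% over all genes). C4a had 124, 85.4, 167, 50.3 and 77.5 CPM in Titan and 502, 329, 412, 354 and 279 CPM in control mice (log2 -1.90 ± 0.28, adjusted p = 2.0e-04). Its neighbour C4b, which is nearly identical in sequence, was higher, with 1220.0 ± 202 against 671 ± 219 CPM (log2 0.86 ± 0.17, adjusted p = 0.00228). The sum of the pair was not tested, reads common to both are not counted, and a difference in RNA cannot be told apart from a difference between the lines in which reads are unique. C2 (log2 -0.45 ± 0.12, adjusted p = 0.0165) and C8g (log2 -0.42 ± 0.11, adjusted p = 0.0225) were lower, and C3 was not called (log2 -0.05 ± 0.14, adjusted p = 0.865). In coagulation 5 of 28 members were lower (17.9% against 4.88% over all genes) and 0 higher. They were led by the thrombin inhibitor Serpind1 (log2 -0.40 ± 0.08, adjusted p = 0.00189), tissue factor F3 (log2 -0.92 ± 0.22, adjusted p = 0.00986) and factor X, F10 (log2 -0.41 ± 0.11, adjusted p = 0.0279). Prothrombin F2 (log2 0.09 ± 0.07, adjusted p = 0.448) and fibrinogen Fgb (log2 0.04 ± 0.11, adjusted p = 0.88) did not pass the test.

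Receptor tyrosine kinases were called in both directions, 5 higher and 4 lower of 36 (13.9% and 11.1% against 4.24% and 4.88% over all genes). Kit, the stem cell factor receptor, had 2.99, 4.1, 1.82, 2.19 and 3.65 CPM in Titan and 9.69, 14.5, 6.64, 7.64 and 6.38 CPM in control mice (log2 -1.59 ± 0.26, adjusted p = 6.3e-04). Ephb6, a kinase-dead ephrin receptor, had 3.26, 2.83, 5.35, 14.1 and 3.91 CPM in Titan and 0.686, 0.542, 1.24, 2.11 and 0.503 CPM in control mice (log2 2.59 ± 0.49, adjusted p = 0.00186). Erbb4 had 0.272, 0.293, 0.365, 0.253 and 0.34 CPM in Titan mice and 10.3, 12.4, 0.162, 14.2 and 7.97 CPM in control mice. Control mouse 3 was as low as the Titan mice, and the other 4 control mice were far above them (log2 -4.82 ± 1.01, adjusted p = 0.00453). No Titan mouse had more than 4 reads of Erbb4, near the floor of 3, so the size of its fold is uncertain. The collagen receptor Ddr1 was higher (log2 1.48 ± 0.34, adjusted p = 0.00831), and Met, the hepatocyte growth factor receptor, was slightly lower (log2 -0.30 ± 0.09, adjusted p = 0.0491), a call lost in 13 of 20 settings. Egfr (log2 0.06 ± 0.24, adjusted p = 0.916) and the insulin receptor Insr (log2 0.03 ± 0.07, adjusted p = 0.87) were not called, nor was any of the 26 non-receptor tyrosine kinases by edgeR (5 with an unadjusted p under 0.05, 1 called by DESeq2). The count of 5 higher receptors fell to 2 in the fit of the 10 mice alone and under either check of reads outside genes, to 1 with at least 10 counts in every mouse, and to 2 or 3 without Titan mouse 2, 3 or 4 or control mouse 1, 3 or 5.

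Among axon guidance ligands and receptors 4 of 38 were higher and 0 lower, 10.5% called against 9.12% over all genes. Nrp2, a co-receptor of semaphorins and VEGF-C, had 74.1, 58.4, 61.1, 53.9 and 86.9 CPM in Titan and 41.2, 18.3, 24.1, 34.9 and 34.3 CPM in control mice (log2 1.13 ± 0.18, adjusted p = 3.6e-04). The other higher members were Efna5 (log2 0.62 ± 0.17, adjusted p = 0.0303), Sema4g (log2 0.42 ± 0.13, adjusted p = 0.044) and Sema6b (log2 0.47 ± 0.14, adjusted p = 0.0449), which lost their calls in 8, 11 and 15 of 20 settings. Of 235 tested solute carriers 15 were higher (6.38% against 4.24% over all genes) and 17 lower (7.23% against 4.88%), with a median of 0.02. The potassium-chloride cotransporter Slc12a7 was higher (log2 0.73 ± 0.09, adjusted p = 4.5e-05), while the sodium-potassium-chloride cotransporter Slc12a2 (log2 -1.13 ± 0.17, adjusted p = 2.6e-04) and the monoamine transporter Slc18a1 (log2 -1.27 ± 0.20, adjusted p = 4.4e-04) were lower.

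Autophagy and lysosome genes had 3 higher and 4 lower of 45 members (6.67% and 8.89% against 4.24% and 4.88% over all genes). Map1lc3a, which coats autophagosomes, averaged 43.9 ± 10.5 against 22.7 ± 1.91 CPM (log2 0.95 ± 0.14, adjusted p = 2.4e-04), and the lysosomal regulator Tfeb 8.27 ± 0.455 against 6.08 ± 0.744 CPM (log2 0.44 ± 0.12, adjusted p = 0.0249). The lysosomal proteases Ctsl (log2 -0.52 ± 0.11, adjusted p = 0.00381) and Ctsb (log2 -0.58 ± 0.14, adjusted p = 0.011) were lower. Map1lc3a, Trp53inp2 and Acss2 lie in the same megabase of chromosome 2, from 155000001 to 156000000 of GRCm38.

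Growth hormone and insulin-like growth factor signalling had no called member among 21 by edgeR, 4 with an unadjusted p under 0.05 and 0 called by DESeq2. Igf1, the main growth factor that liver releases, had 898, 966, 1296, 1252 and 1252 CPM in Titan and 1092, 1003, 1082, 1356 and 986 CPM in control mice (log2 0.04 ± 0.13, adjusted p = 0.894). Ghr, the growth hormone receptor, averaged 803 ± 51.3 against 932 ± 103 CPM (log2 -0.21 ± 0.08, adjusted p = 0.121) and its signalling factor Stat5b 57.7 ± 2.76 against 67.5 ± 14.2 CPM (log2 -0.23 ± 0.12, adjusted p = 0.267). Socs2 (log2 1.10 ± 0.55, adjusted p = 0.23), Cish (log2 -0.79 ± 0.64, adjusted p = 0.476), Igfbp1 (log2 0.23 ± 0.56, adjusted p = 0.843) and Igfbp2 (log2 -0.51 ± 0.49, adjusted p = 0.563) varied several-fold between mice of the same line. With edgeR 0 of 20 female-biased and 4 of 24 male-biased liver genes were called. Of the latter 2 moved in each direction (8.33% each, against 4.24% higher and 4.88% lower over all genes). Values were under 0 for 17 of the 24 male-biased genes, with a median of -0.24. Of the female-biased genes 7, all with values over 0, had an unadjusted p under 0.05 in edgeR, and DESeq2 called 2. Values were over 0 for 14 of the 20 female-biased genes, with a median of 0.38. Of the called male-biased genes, Cyp2u1 (log2 -1.38 ± 0.28, adjusted p = 0.00317) and Ugt2b1 were lower, Nat8f5 (log2 2.35 ± 0.52, adjusted p = 0.00662) and Cspg5 (log2 0.88 ± 0.26, adjusted p = 0.0348) higher.

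Some of these sex-biased genes varied widely between the mice of a line. Hsd3b5, a male-biased steroid dehydrogenase, had 132, 83.1, 96, 8.35 and 153 CPM in Titan and 254, 304, 315, 242 and 297 CPM in control mice. No Titan mouse reached a control mouse, yet the test was not passed (log2 -1.58 ± 0.63, adjusted p = 0.126), with mouse 4 far under the other Titan mice. Elovl3, a male-biased fatty acid elongase, had 299, 448, 346, 92 and 597 CPM in Titan mice, again lowest in mouse 4, and 476, 318, 283, 305 and 503 CPM in control mice (log2 -0.08 ± 0.43, adjusted p = 0.935). Titan mouse 4 had the lowest value of the 5 Titan mice in 13 of the 24 male-biased genes and the highest in 10 of the 20 female-biased genes. Titan mouse 1 had the highest in 9 male-biased and the lowest in 10 female-biased genes. How often each mouse was at an extreme over all tested genes was not counted. These counts are therefore a description and not a trait shown for the sex-biased genes. Among female-biased genes, Cyp2b9 (log2 -0.85 ± 0.99, adjusted p = 0.644) was highest in control mouse 3 with 46.4 CPM and Hao2 (log2 -0.16 ± 1.23, adjusted p = 0.958) in Titan mouse 4 with 2.02 CPM. Cyp17a1 (log2 -0.31 ± 0.43, adjusted p = 0.712) and Cux2 (log2 0.31 ± 0.39, adjusted p = 0.678) were not called, nor was the male-biased Cyp2d9 (log2 -0.02 ± 0.18, adjusted p = 0.96). The female-biased genes named here do not stand for their list, in which 14 of 20 values were over 0.

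**Figure D4:**
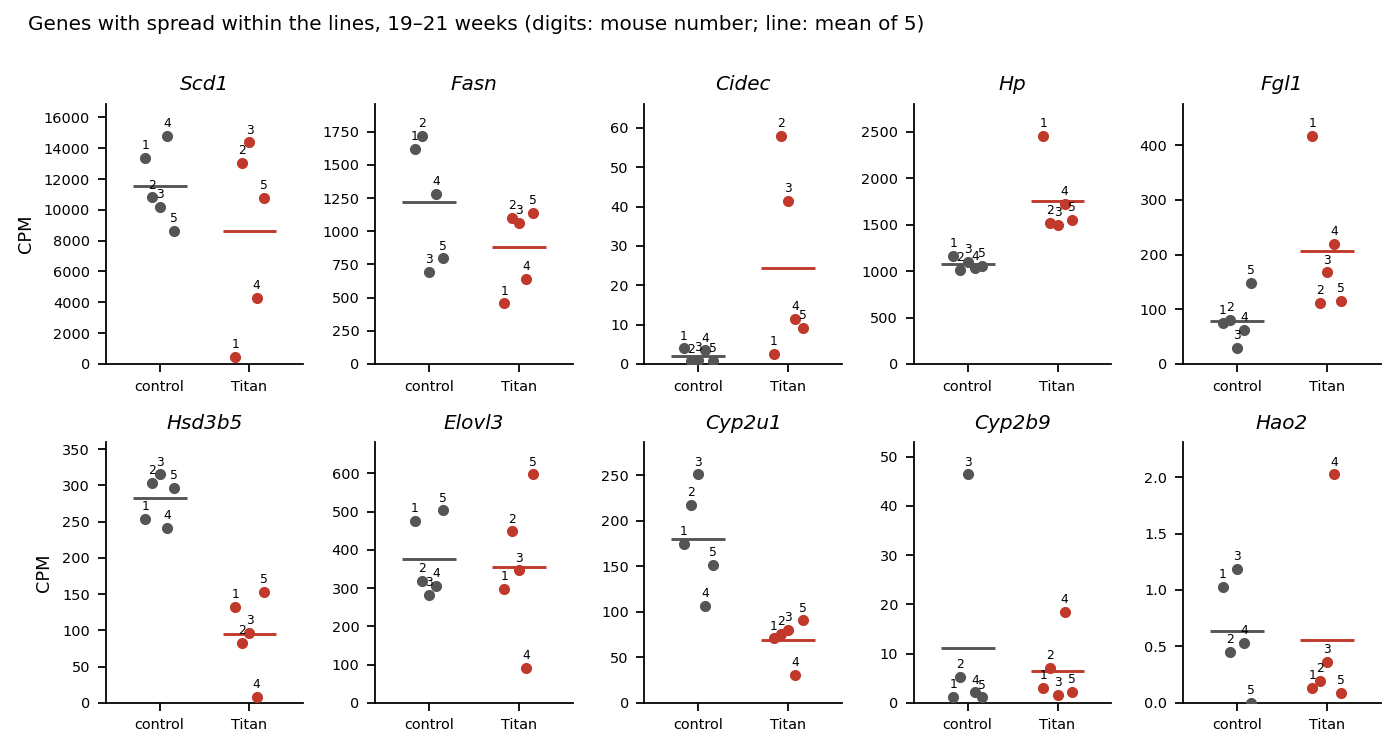
CPM in each mouse of 19–21 weeks, with mouse numbers beside the points, for 10 genes that vary within a line. Titan mouse 1 is lowest for Scd1 and Fasn and highest for Hp and Fgl1, and Titan mouse 4 is lowest for Hsd3b5, Elovl3 and Cyp2u1 and highest among Titan mice for Cyp2b9 and Hao2.

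Of 55 nuclear receptors and liver transcription factors edgeR called 2 higher and 0 lower (3.64% against 9.12% over all genes), DESeq2 called 5, and 11 had an unadjusted p under 0.05. The 2 were the retinoic acid receptor Rarg (log2 0.73 ± 0.14, adjusted p = 0.00225) and the stress factor Atf3 (log2 1.44 ± 0.42, adjusted p = 0.0338), whose call was lost in 7 of 19 settings. Hnf4a, a master factor of hepatocytes, averaged 646 ± 90.3 against 647 ± 80.5 CPM (log2 0.00 ± 0.11, adjusted p = 0.999). None of the 18 circadian clock genes and 22 retinoid metabolism genes was called by edgeR or DESeq2, and 0 and 1 of them had an unadjusted p under 0.05. A p over the threshold does not show that these levels were equal.

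Cytosolic ribosomal protein genes were lower in 6 of 77 cases and higher in 0, a share of 7.79% lower against 4.88% over all genes. Rps24 had 20.8, 15.6, 15.1, 17.3 and 16.5 CPM in Titan and 43.7, 47.4, 48.6, 45.9 and 43.5 CPM in control mice (log2 -1.43 ± 0.13, adjusted p = 1.2e-06). Rps2 had 1.9, 0.977, 1.34, 0.843 and 0.85 CPM in Titan and 15, 22.9, 17.6, 39.8 and 20.5 CPM in control mice (log2 -4.33 ± 0.54, adjusted p = 3.5e-05), Rpsa averaged 2.63 ± 0.48 against 6.28 ± 1.61 CPM (log2 -1.26 ± 0.21, adjusted p = 5.4e-04), and Rpl26 had 15.5, 27.1, 0.647, 11.3 and 28.7 CPM in control and 0.136 to 0.425 CPM in Titan mice (log2 -5.64 ± 0.99, adjusted p = 0.00103). No Titan mouse had more than 5 reads of Rpl26, so the size of its fold is uncertain. Ribosomal protein genes have many near-identical pseudogenes, reads that fit several places were not counted, and the values are only the unique part of each gene. These values are uncertain as measures of the gene's RNA, and the part of sequence differences between the lines in them was not tested.

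The regions of distinct genetic differentiation of the Titan line, stretches of the genome with high differentiation in this line and low differentiation in most of the study's other lines, hold 335 genes. Of these 333 were in the count tables and 121 passed the filter on low counts. Among the 121, 11 were higher and 10 lower (17.4% called against 9.12% over all genes), and the median was 0.00. Vcp, Rps24 and Tcaf1 are in this list, as is Unc13b, a synaptic vesicle priming factor at chromosome 4, 43058953 to 43264871. Unc13b had 69.7, 53, 54.2, 61.1 and 50.1 CPM in Titan and 5.23, 3.34, 10.1, 15.9 and 6.04 CPM in control mice (log2 2.85 ± 0.35, adjusted p = 3.3e-05). The count was 15 to 21 with single mice left out, and 15 without control mouse 1.

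Called genes were also counted by position over 2000 windows of 1 megabase that held a tested gene, of which 1223 held no called gene and 11 held at least 6. These windows were picked by their counts, so the counts are a description. On chromosome 4 from 43000001 to 44000000 (GRCm38), 9 of 20 tested genes were called, among them Unc13b, with 5 higher and 4 lower. On chromosome 7 from 104000001 to 105000000, 6 of 8 were called, all of them Trim genes, with 4 higher and 2 lower. On chromosome 10 from 128000001 to 129000000, 10 of 47 were called, including Gls2, and on chromosome 17 from 35000001 to 36000000, 10 of 45, including Apom and Ddr1 and 6 histocompatibility genes. The next megabase down on chromosome 17, from 34000001, held 8 of 42, including C4b, C4a and C2. The Trim and histocompatibility genes belong to gene families, and reads that fit several places are not counted. For them a difference in RNA and a difference between the lines in which reads are unique cannot be told apart. In these 5 windows 41 of the 43 called genes had the same direction at 11 weeks, as did 94.7% of all called genes. By chromosome the called share ran from 6.77% (chromosome 16) to 11.9% (chromosome 6).

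At 11 weeks, in other mice of the same lines, 7.23% of the genes were higher and 7.7% lower in Titan liver. Of the 1257 genes called at 19–21 weeks, 1191 had the same direction at 11 weeks. Amino acid catabolism had 20 lower members at 11 weeks, 14 of them lower at both ages, and none of the 46 differed between the ages in the edgeR test of the difference (smallest adjusted p = 0.412). Agxt had log2 fold changes of -1.50 at 19–21 and -1.55 at 11 weeks. Glutathione S-transferases had 8 lower at 11 weeks and P450 genes 14. For the 77 respiratory subunits the count was 19 at 19–21 and 5 at 11 weeks, with no member past the threshold in the test of the difference by edgeR and Cox5b by DESeq2.

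Lipid and sex-biased lists had fewer calls at 19–21 weeks than at 11 weeks. Of the 39 genes of fatty acid and droplet metabolism 5 were higher at 19–21 and 18 at 11 weeks. Fasn had -0.47 at 19–21 and 1.55 at 11 weeks, and Acaca -0.25 and 1.18. Of the 20 female-biased genes 0 were called at 19–21 and 13 were higher at 11 weeks, with medians of 0.38 and 2.91, and of the 24 male-biased genes 2 and 16 were lower. Cyp2b9 had -0.85 and 7.21, Hsd3b5 -1.58 and -3.42, and Cyp7b1 -0.35 and -2.66. In the test of the difference by edgeR none of these 3 lists had a member past the threshold (smallest adjusted p 0.0902, 0.0867 and 0.0763), and 13, 10 and 13 had an unadjusted p under 0.05. DESeq2 called 6, 6 and 5. The measured values of Fgf21 (3.09 and 1.78), Hp (0.71 and -0.01) and Klb (-0.54 and 0.03) were larger in size at 19–21 weeks. None of them passed the edgeR test of the difference (adjusted p = 0.642, 0.28 and 0.216), and DESeq2 called only Klb of them. By edgeR only Gm6614 passed the test of the difference over all genes (log2 2.10 and 4.84, adjusted p = 0.0103).

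**Figure D5:**
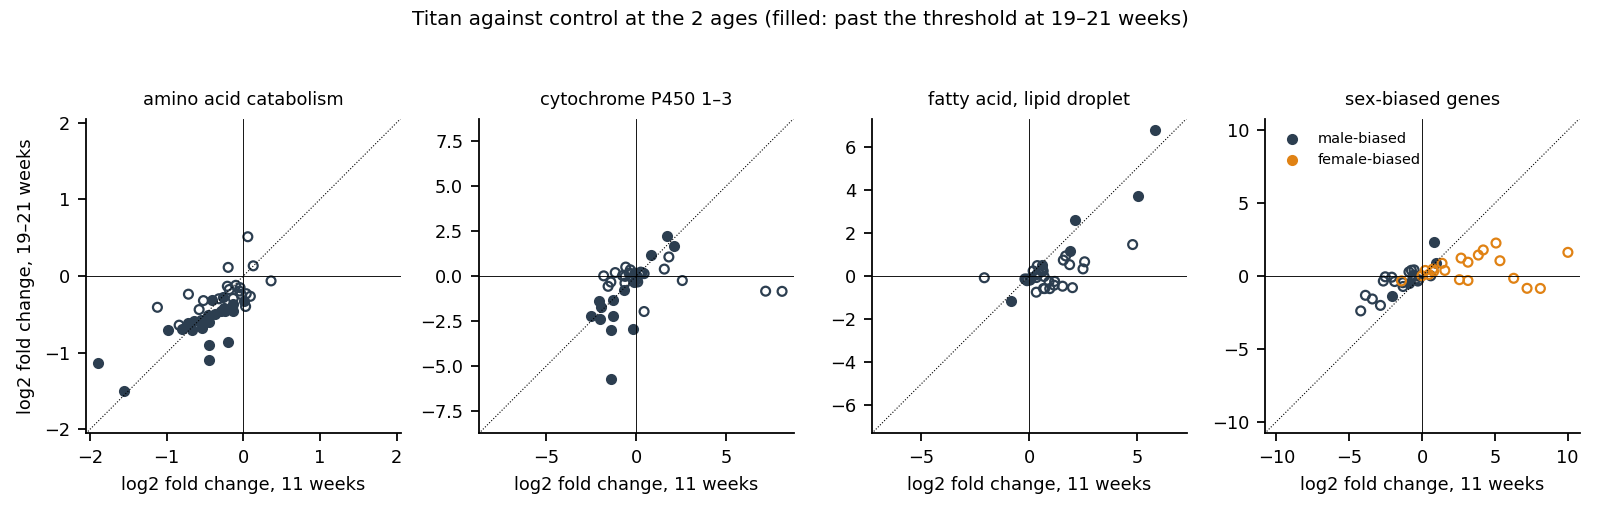
Log2 fold change of Titan over control at 11 weeks (horizontal) and 19–21 weeks (vertical) for the tested members of 4 sets of genes, filled where the gene was called at 19–21 weeks. The values of the amino acid genes at the ages differ by a median of 0.16 and those of the female-biased genes by 2.31, and 17 of the 20 female-biased genes lie under the dotted line of equal change.

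Markers of the cell types of the liver were compared to see what the samples held. All 7 hepatocyte markers were abundant, with a summed level of 74791 to 90578 CPM in Titan and 66735 to 98866 CPM in control mice, and none was called by edgeR. Nor was any of the 7 Kupffer cell markers (75.7 to 254 against 84.7 to 200.2 CPM), 7 stellate cell markers (388 to 523 against 346 to 497 CPM) or 5 tested cholangiocyte markers. DESeq2 called 0 in these 4 lists as well, and 1 Kupffer cell marker and 0 of the others had an unadjusted p under 0.05. Of 7 markers of sinusoidal endothelium 2 were lower (28.6% against 4.88% over all genes). They were Lyve1 (log2 -2.18 ± 0.52, adjusted p = 0.0107) and Oit3 (log2 -0.36 ± 0.11, adjusted p = 0.0434), and the call of Oit3 was lost in 15 of 20 settings. All 7 endothelial markers had negative values, and their sum was 295 to 369 CPM in Titan and 360.4 to 386 CPM in control mice. Few markers of lymphoid, erythroid and dividing cells were tested. Cd3e, of T cells, was higher (log2 2.02 ± 0.59, adjusted p = 0.0348), a call lost in 12 of 19 settings. The other of the 2 tested T cell markers, Cd4, had a log2 value of -1.11 and was not called. The 6 T cell markers summed to 2.45 to 4.62 CPM in Titan and 2.49 to 4.22 CPM in control mice. Ighm, 1 of 2 tested B cell markers, was lower (log2 -2.45 ± 0.56, adjusted p = 0.00841) through 40 and 49.9 CPM in control mice 3 and 4. Ccna2, 1 of 4 tested markers of dividing cells, was higher (log2 1.74 ± 0.47, adjusted p = 0.0235). Summed red blood cell markers lay at 192 to 306 CPM in Titan and 137 to 249 CPM in control mice. The defining adipocyte genes Lep, Plin1, Retn and Adipoq and 6 of 7 pancreas markers had at most 3 reads in every mouse. The part of cell make-up in the results above was not tested.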

How the data were processed

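Liver RNA was depleted of rRNA by the authors and sequenced as strand-specific libraries, which they mapped to GRCm38 with STAR 2.5.3a and an Ensembl annotation. The deposited values are raw counts of reads per gene for each mouse, with no normalization, filter or pooling. Reads with several positions or on several genes are not counted. Counts are those of the reverse strand (96.83% to 97.55% of stranded gene reads in the 10 mice). Of 55573 gene IDs per file 55480 were annotated in GENCODE M21, and the 4 lines of totals were left out. As in the study's methods, 1562 Y-linked and 110 histone genes were removed.

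Groups followed the sample titles. All 20 mice entered 1 fit of 4 groups with edgeR 4.0.16 (R 4.3.3), TMM scaling, the default filter of filterByExpr and two-sided quasi-likelihood F tests. Adjusted p values of genes come from this test over the 13784 genes. The SE was taken as the absolute log2 fold change divided by √F. The difference between the ages was the interaction in the same fit. A mouse with at most 3 reads of a gene was taken as at the floor. Gene lists were read as counts and medians beside all tested genes, with no test. Promoter sequences are from RefSeq, and 9907 tested genes matched by symbol. The upstream motifs were searched on both strands with Python 3.11.15.

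The comparison, the gene lists and the alternatives were chosen with earlier results of these data known. Named are the 10 protein-coding genes per direction with the smallest p and no overlap (interferon-stimulated genes and assembly factors left out), for each list its key genes and up to 4 called members with the smallest p, and cell type markers. Outside this rule, and picked after values were seen, are Cyp1b1, Cyp3a13, Cyp2c39, Fitm1, Fitm2, Pltp and C8g, the windows of 1 megabase and the single-mouse comparisons. In simulated counts of 13595 genes the fit found 81 of 103 genes changed by 2-fold and 92 of 97 changed by 4-fold, with 4 false calls of 177. These counts were drawn with the spread that the fit had estimated, 200 changed genes and no shifts shared by the genes of a mouse. They check the code and do not give the rate of false calls in these data. The mice are separate animals, no source used here gives a batch or sequencing pool per mouse, and p values measure the spread between these mice. The 2 alternatives on reads outside genes were added after the data were seen. Other experiments of the study were not analysed here, and some genes that the naming rule takes in are not reported here.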

Additional observations from a re-analysis of the deposited data

Results flagged for a closer look

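In the named genes, a mouse stood apart from the other 4 of its group, by Dixon's criterion at the 95% level, in 33 of 390 groups of 5 (8.46%). For independent and normally distributed values about 1 in 20 would be met. CPM values need not be normal, some groups are near the floor, and the genes come from the same mice. The share is therefore a description and not a test. Titan mouse 4 was highest for Fgf21 (16.5 CPM against 4.84 in the next mouse), Cyp2a12 (193 against 56.9), Ugt2b37 (87.2 against 45.8), Ephb6 (14.1 against 5.35), Hao2 (2.02 against 0.365) and Pygb (15 against 10.3), and lowest for Slc10a1 (319 against 408) and Cyp4v3 (285 against 406). Titan mouse 1 was highest for Hp (2461 against 1720.4), Fgb (5129 against 3928) and Orm2 (5.30 against 2.38), and lowest for Gls2 (106 against 168) and Ugt2a3 (119 against 169).

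Titan mouse 2 was highest for Cidea (39.8 against 7.66), Sds (116 against 59.4) and Nr1i2 (62.5 against 50.5), and Titan mouse 3 for Atf3 (3.77 against 1.77). In control liver, mouse 1 was highest for Ces1d (906 against 519), G6pc (934 against 500.2) and Slc12a7 (107 against 84.4) and lowest for Acaa1a (64.7 against 93.9). Control mouse 2 was lowest for Lepr (1.99 against 3.94). Control mouse 3 was highest for Cyp2b9 (46.4 against 5.23), Ehhadh (538 against 438) and Hba-a2, where 0.0540 CPM was the 1 read of the group, and lowest for Cyp8b1 (272 against 385). Control mouse 4 was highest for Igf1 (1356 against 1092), Cd3e (2.24 against 0.324) and Cidea (0.395 against 0.0858). Control mouse 5 was highest for Lyve1 (18.2 against 6.74), Saa1 (18.6 against 5.56) and Ugt2b37 (15.8 against 3.43) and lowest for Slc12a2 (17.5 against 27.1).

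Gm6614 was the only gene over all tested genes whose Titan effect differed between the ages in the edgeR test of the difference. The effect at 19–21 weeks was smaller by a log2 value of -2.74 than that at 11 weeks (adjusted p = 0.0103), and it was positive at both ages. Over all genes, 1231 had an unadjusted p under 0.05 in this test.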

How the results depend on the processing

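Of the 145 called genes named here, 101 kept their call in all of up to 20 alternative settings that tested them, and no call changed direction. Of the named genes not called in the main fit, Nr1i3 was called in some settings, and Abcb11 and Ghr without control mouse 5. Beside the losses given above, Sult1b1 lost its call in 8, Ces1d and Cspg5 in 7 and F10, Tfeb and Psmb1 in 6 of 20. The number of genes higher and lower in Titan liver stayed within 1.5 times of 584 and 673 under DESeq2 (709 and 811), RLE size factors (588 and 664), counts over both strands (612 and 657), no filter on low counts (520 and 603), at least 10 counts in every mouse (448 and 488), Y chromosome and histone genes kept (588 and 675) and the percentage outside genes in the model (460 and 569). The fit of the 10 mice alone gave 364 and 446, leaving out control mouse 4 and Titan mouse 3 gave 433 lower genes, and a log2 fold change over 0.5 left 376 lower genes. With single mice left out, 420 to 589 genes were higher and 473 to 703 lower. Genes whose Titan effect differed between the ages numbered 1 in the edgeR fit, 87 by DESeq2, 26 with no filter, 0 with at least 10 counts, 2 without control mouse 4 and Titan mouse 3, and 1 to 9 with single mice left out. With the replicate number as a block 503 genes were higher and 591 lower. The numbers share no animal, litter or day in the labels, and same-numbered mice of the lines deviated with correlations of -0.203 to 0.062, so they were not taken as pairs. The cause of these shifts was not tested. Depth limits genes at or under 3 reads in a mouse, equal to a mean of 0.315 CPM in Titan and 0.267 CPM in control liver.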

Other observations

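In each of the lists that follow 1 to 3 members were called. The called share was 14.3% in family 4 of cytochrome P450 and 10.3% in extracellular matrix, against 9.12% over all genes. In the other lists it ran from 3.33% to 8.0%, under the share over all genes. ABC transporters had 2 higher and 1 lower of 40 tested members, with the lysosomal peptide transporter Abcb9 (log2 1.20 ± 0.24, adjusted p = 0.00279) higher beside Abcb4 and the urate and drug exporter Abcg2 (log2 -0.59 ± 0.16, adjusted p = 0.02) lower. Of 29 extracellular matrix genes the gelatinase Mmp2 averaged 1.02 ± 0.311 against 2.41 ± 0.613 CPM (log2 -1.28 ± 0.29, adjusted p = 0.00831), Timp2, its inhibitor, was lower (log2 -0.56 ± 0.14, adjusted p = 0.0132) and the laminin chain Lamc1 higher (log2 0.48 ± 0.12, adjusted p = 0.0131). Of 30 genes of the unfolded protein and heat shock response the mitochondrial co-chaperonin Hspe1 was lower, with 13.6, 14.6, 13.7, 11.8 and 11.7 CPM in Titan and 26.8, 24.6, 33, 23.7 and 27.7 CPM in control mice (log2 -1.06 ± 0.13, adjusted p = 3.8e-05). Of 25 NRF2 targets and antioxidant enzymes the mitochondrial peroxiredoxins Prdx3 (log2 -0.49 ± 0.11, adjusted p = 0.00557) and Prdx5 (log2 -0.39 ± 0.12, adjusted p = 0.0477) were lower, and the call of Prdx5 was lost in 11 of 20 alternative settings.

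Of 41 genes of insulin, mTOR and AMPK signalling 1 was lower and 1 higher, the latter the kinase Gsk3b (log2 0.21 ± 0.06, adjusted p = 0.0438), whose call was lost in 13 of 20 alternative settings. In family 4 of cytochrome P450, Cyp4f13 was higher (log2 0.41 ± 0.10, adjusted p = 0.0125) and Cyp4v3 lower (log2 -0.50 ± 0.12, adjusted p = 0.0133) of 14 tested. Among 26 genes of heme and iron metabolism Blvrb was higher (log2 0.69 ± 0.15, adjusted p = 0.00662) and Tfr2 lower (log2 -0.32 ± 0.08, adjusted p = 0.0199). Proteasome subunits had Psmb3 higher (log2 0.53 ± 0.14, adjusted p = 0.0168), and Psmb1 (log2 -0.24 ± 0.06, adjusted p = 0.0228) and Psma8 (log2 -1.59 ± 0.40, adjusted p = 0.0162) lower, of 38. These adjusted p values are those of edgeR over all tested genes.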
